A study of Mus musculus with 3 samples.

Results

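Among 3082 cells sorted for the placode antigen MAdCAM-1 from mouse back skin at stage E14.5 (embryonic days), 87 carried the keratins of the layers above the basal one: 42 of the 1511 cells of placode-enriched library 1 and 45 of the 1571 of library 2. They were chosen by their own transcripts, as cells in which Krt1, Krt10 and Krtdap together reached 10 or more of every 10000 unique molecular identifiers (UMIs, each standing for 1 captured RNA molecule). They made up 2.78% (exact 95% binomial interval 2.01 to 3.74) and 2.86% (2.10 to 3.81) of their libraries and are called suprabasal-like cells here. Cells of the same libraries with a sum under 5 served as references. They were placode cells, 539 and 559 in number, where Dkk4, Edar, Fgf20, Bmp2 and Ltb together reached 4 per 10000 UMIs, and non-placode cells, 707 and 757 in number, where they stayed under 2. The 223 and 210 cells between these limits were left out.

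All 3 libraries of the series came from embryos labelled WT, strain C57BL/6JOlaHsd, with no treatment named for any group. Epithelium was freed from the dermis with Dispase II and dissociated with TrypLE Select, and each library pooled the epithelial sheets of 3 to 4 littermates, so that no animal can be told from its littermates. Live cells were stained with an antibody to MAdCAM-1 and sorted either on that antigen (the 2 placode-enriched libraries, biological replicates by the series design) or as total epithelium (1 library, called ungated here), and sequenced with 10x Chromium 3' chemistry, version 2. The ungated library held 1601 cells, of which 448 (28.0%) met the suprabasal limit, 227 the non-placode and 35 the placode limits.

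The epidermis is renewed and thickened from a basal layer that sits on a basement membrane through integrins and hemidesmosomes. Cells that leave it switch from Krt5, Krt14 and Krt15 towards Krt1 and Krt10, with Notch signalling and factors such as Grhl3 and Zfp750 driving the change. Hair placodes are local thickenings of the basal layer that form under Wnt and ectodysplasin signals and later grow into follicles, in which Sox9 marks the cells that give rise to stem cells and Krt79 and Krt17 mark cells of the hair canal and the companion layers.

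The libraries held 34900788, 38645840 and 36924284 UMIs, in the order placode-enriched 1, placode-enriched 2 and ungated, and the median cell held 21652, 23419 and 21977. The classes do not sit at the same background: the suprabasal keratin sum had a median of 4.30 per 10000 UMIs in placode cells of the ungated library against 0.734 and 0.646 in the gated ones, and 873 ungated cells lay between 5 and 10, against 14 and 15 gated cells. At limits of 20 and 40 per 10000 the number of suprabasal-like cells was 60 and 39 in the gated and 295 and 261 in the ungated library. The pools also differed in sex make-up. Xist, the RNA of the inactive X chromosome, was at 929 and 752 counts per 1000000 UMIs (CPM) in the gated suprabasal-like cells and 0.0932 in the ungated ones, and the Y-linked Ddx3y at 9.20 and 10.4 against 40.1. Libraries 1 and 2 shared 2 cell barcodes, 1 of them a suprabasal-like cell, and each shared 1 with the ungated library, 1 of them in a suprabasal-like cell.

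**Figure D1:**
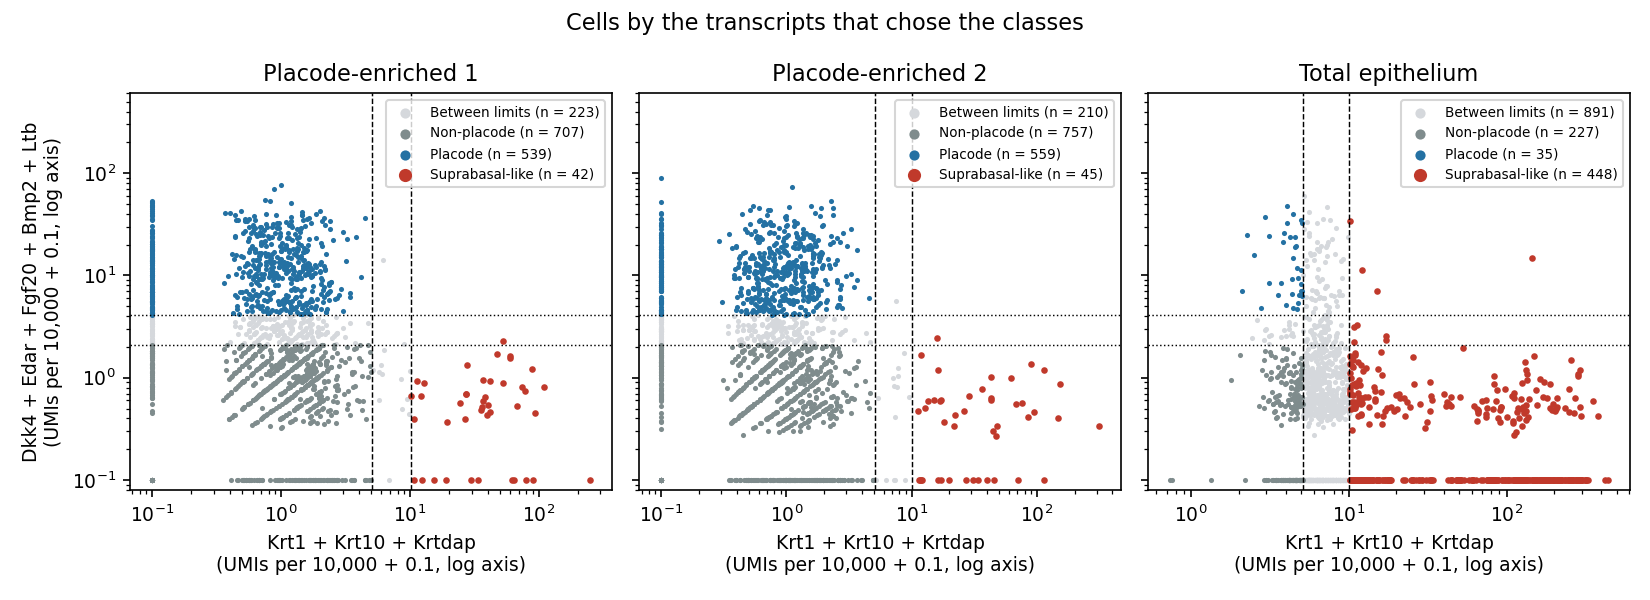
Each point is 1 cell, with the Krt1, Krt10 and Krtdap sum on the x axis and the Dkk4, Edar, Fgf20, Bmp2 and Ltb sum on the y axis, both per 10000 UMIs; panels are the 3 libraries and lines mark the class limits. The 42 and 45 suprabasal-like cells of the gated libraries lie at the right with placode sums of at most 2.19 and 2.36.

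The genes that chose the cells were carried by nearly all of them. Krt1 (chromosome 15, 101845426 to 101850794 on GRCm38) stood at 981 and 1051 CPM in libraries 1 and 2, against 18.9 and 17.2 in non-placode and 12.3 and 10.3 in placode cells, and 2229 in ungated suprabasal-like cells. Krt10 (chromosome 11, 99385254 to 99389364), its keratin partner, was at 1374 and 1569 CPM against 59.8 and 51.6 in non-placode cells and 2958 in ungated suprabasal-like cells. Krtdap (chromosome 7, 30787896 to 30791097), a secreted differentiation-associated protein, was at 2417 and 2729 against 44.5 and 33.0, and 4331 when ungated. These levels follow from the rule and are no finding, but the gated cells lay nearer the limit: the sum ranged from 10.0 through a median of 37.6 to 248 per 10000 in library 1 and from 11.1 through 30.9 to 313 in library 2, with an ungated median of 74.0. A Krt1 UMI was seen in 92.9% and 91.1% of them, a Krt10 UMI in 95.2% and 93.3% and a Krtdap UMI in 100% and 100%. Just outside the limit, at 5 to 10 per 10000, lay 14 and 15 cells with Krt17 at 1317 and 1956 CPM and Notch3 at 3.09 and 30.2. Just inside, at 10 to 15, 7 and 9 cells had Krt17 at 3843 and 1111 and Notch3 at 53.6 and 48.3.

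A droplet that traps a suprabasal and a placode cell together would be deep and would carry the genes of both, so depth and co-detection were read in single cells. The suprabasal-like cells were deeper than their neighbours. Their median was 28191 and 31677 UMIs against 23829 and 25806 in non-placode cells (1.18 and 1.23 times) and 19966 and 20809 in placode cells (1.41 and 1.52 times). The ungated suprabasal-like cells held 23117, 1.04 times their non-placode and 1.34 times their placode neighbours. In libraries 1 and 2, 10 and 18 suprabasal-like cells (23.8% and 40%) lay above the 90th percentile of their library's depth, against 13.9% and 14.0% of non-placode and 5.75% and 3.76% of placode cells. The doublet caller scrublet marked 0 and 1 of them. It marked 7, 4 and 11 cells in the 3 libraries, under 0.5% of cells in the gated ones, too few for its calls to be relied on.

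No suprabasal-like cell was also a placode cell by these limits. None of 42 and none of 45 reached the placode limit of 4 per 10000, where the 3 counts that a 0 allows stand for shares of up to 7.14% and 6.67%, and the highest sums were 2.19 and 2.36. The sum was 0 in 11 and 14 of them. UMIs of 2 or more of the 5 placode genes were found in 38.1% and 15.6%, against 48.7% and 40.3% of non-placode cells, which the rule keeps low in these genes. Edar, the ectodysplasin receptor, was seen in 7.14% and 15.6% of suprabasal, 37.8% and 35.3% of non-placode and 79.8% and 79.6% of placode cells. Dkk4, a secreted Wnt antagonist, was seen in 57.1% and 33.3% of suprabasal, 39.0% and 26.3% of non-placode and 83.3% and 84.6% of placode cells. With each cell thinned to 5000 UMIs the shares were 4.76% and 6.67% in suprabasal, 8.77% and 4.89% in non-placode and 64.2% and 66.9% in placode cells. Shh, a placode signal that the rule did not use, was in 9.52% and 11.1% of suprabasal-like cells, near the 11.6% and 11.1% of non-placode cells and below the 61.2% and 64.9% of placode cells. The sorted antigen itself, Madcam1, was detected in 14.3% and 6.67% of suprabasal-like cells against 29.0% and 28.5% of non-placode and 63.3% and 59.9% of placode cells, and in 1.56% of ungated suprabasal-like cells. The cells that passed the gate on the protein thus held little of its transcript. Protein was not measured here.

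Within the suprabasal-like cells, suprabasal and placode transcripts met about as often as their separate frequencies in that class give. Notch3, a receptor of suprabasal keratinocytes, had a UMI in 28 and 34 suprabasal-like cells (66.7% and 75.6%) against 2.97% and 4.76% of non-placode and 0.371% and 2.68% of placode cells. Notch3 and Shh met in 2 and 3 cells, where independent detection of the genes would give 2.67 and 3.78. Notch3 and Edar met in 3 and 4 against 2 and 5.29, Notch3 and Madcam1 in 4 and 2 against 4 and 2.27 and Notch3 and Dkk4 in 15 and 10 against 16 and 11.3. Grhl3, a factor of the differentiation programme, was in 95.2% and 93.3% of the cells and met Edar in 3 and 6, against 2.86 and 6.53. With Grhl3 in nearly all cells, that overlap is nearly fixed by the number of cells with Edar. The low counts for Shh, Edar and Madcam1 thus go with how few of these cells held a UMI of them. All cells of the class were chosen by suprabasal transcripts, so such overlap could arise in single cells and in doublets alike. The overlap counts therefore cannot tell doublets from single cells. These are counts of cells with a UMI, which rise with depth. A doublet of a suprabasal and a non-placode cell cannot be told apart from a single suprabasal-like cell by placode genes, and its part in the depth was not tested.

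**Figure D2:**
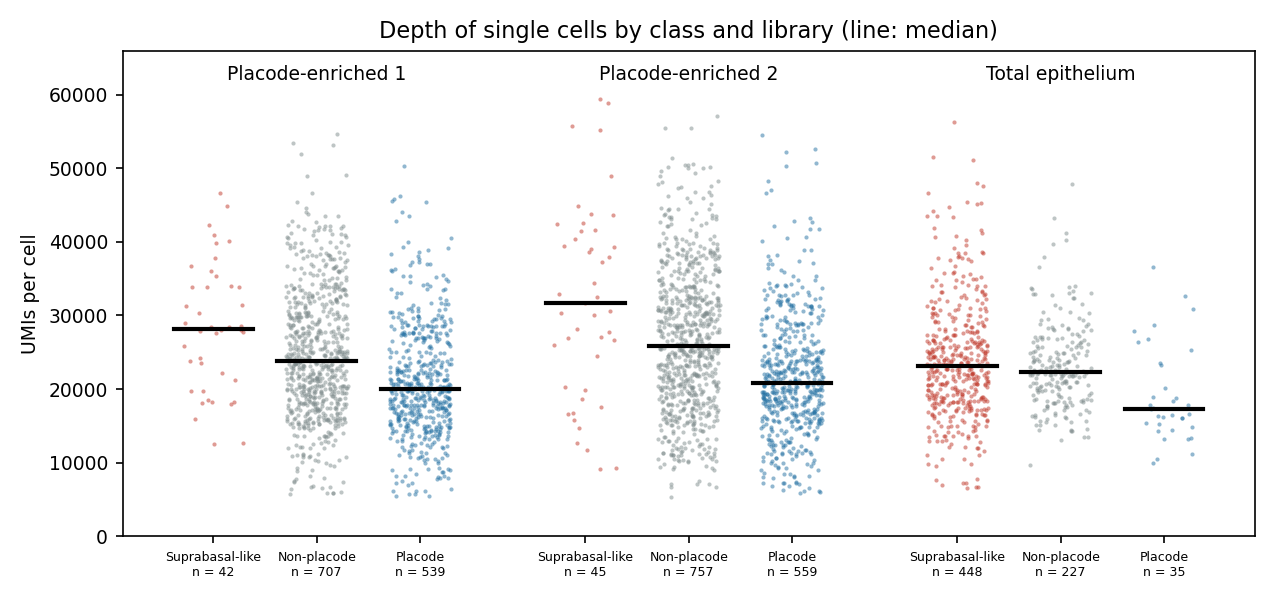
UMIs per cell by class and library. The suprabasal-like cells of placode-enriched libraries 1 and 2 have medians of 28191 and 31677, above non-placode (23829 and 25806) and placode cells (19966 and 20809).

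Krt17, Sox9, Krt79, Ccnd1 and Alcam were given as the genes that mark these cells. They were picked with results of these data known, so their levels are described with no test. Krt17 (chromosome 11, 100256217 to 100261029), a keratin of early skin, placodes and later follicle layers, was at 3864 and 2548 CPM in suprabasal, 698 and 615 in non-placode and 1067 and 920.4 in placode cells. Ungated suprabasal-like cells held 409.6 CPM, and their non-placode and placode neighbours 170.0 and 860.3. Krt17 was thus highest in the gated suprabasal-like cells of both libraries, with library 1 above library 2 (log2 fold change over non-placode cells 2.22 ± 0.04 SE and over placode cells 1.60 ± 0.04). Leaving out library 1 or 2 gave 2.02 or 2.41 over non-placode cells, a gap that the SE does not show. Krt17 was spread widely among the suprabasal-like cells, from 1.26 through a median of 28.6 to 178 per 10000 UMIs in library 1 and from 0.236 through 19.6 to 126 in library 2. Of the 42 and 45 cells, 22 and 21 exceeded the 95th percentile of their non-placode neighbours, and 42 and 40 the median of ungated suprabasal-like cells.

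Sox9 (chromosome 11, 112782224 to 112787760), the transcription factor of early follicle stem cells, was at 83.7 and 81.8 CPM in suprabasal, 45.8 and 51.1 in non-placode and 25.1 and 26.3 in placode cells, against 14.1 in ungated suprabasal and 9.11 in ungated non-placode cells. The gated non-placode cells were thus above the ungated ones as well, and the log2 contrast of suprabasal with non-placode cells differed by 0.03 ± 0.28 between gated and ungated libraries. Alcam (chromosome 16, 52248996 to 52454074), an adhesion molecule of the immunoglobulin family, was at 265 and 259 CPM in suprabasal, 53.0 and 64.7 in non-placode and 139 and 149 in placode cells, and at 57.2, 18.0 and 113 in the ungated classes, with a difference of the contrasts of 0.37 ± 0.19. Ccnd1 (chromosome 7, 144929931 to 144939925), cyclin D1, was at 139 and 126 CPM in suprabasal, 47.3 and 50.1 in non-placode and 35.2 and 30.1 in placode cells, but at 21.8 in ungated suprabasal-like cells, below the 36.8 of their non-placode neighbours. Its contrast between suprabasal and non-placode cells therefore pointed up in the gated libraries (1.39 ± 0.10) and down in the ungated one, and the contrasts differed by 2.08 ± 0.18. For Krt17 they differed by 0.89 ± 0.07, a value that moved with the processing. It ranged from 0.41 without cells at 100 or more G2 and M phase UMIs per 10000 to 0.95 with RLE scaling. With thinned cells it was 0.46, and without cells above the 90th percentile of depth 0.55. With the library number ignored its SE was 0.25, and leaving out library 1 or 2 gave 0.68 or 1.12.

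Krt79 (chromosome 15, 101929332 to 101940324), a keratin of the hair canal, was rare. It stood at 18.4 and 29.1 CPM in suprabasal-like cells, 0.513 and 0.298 in non-placode, 0.176 and 0.328 in placode and 2.05 in ungated suprabasal-like cells. A Krt79 UMI was found in 10 of 42 and 11 of 45 suprabasal-like cells (23.8% and 24.4%), against 1.27% and 0.793% of non-placode cells and 1.79% of ungated suprabasal-like cells, at lower median depths. With cells thinned the shares in suprabasal-like cells were 4.76% and 6.67%. Its level leaned on single cells: 20 of 42 UMIs in library 2 came from 1 cell, without which the level there was 15.4 CPM, still above every reference class. Of Sox9, Krt79, Ccnd1 and Alcam, 3 or more were detected together in 26 and 24 suprabasal-like cells (61.9 and 53.3%), against 16.0 and 14.53% of non-placode, 11.7 and 10.9% of placode and 5.58% of ungated suprabasal-like cells. With every cell thinned to 5000 UMIs these shares were 23.8 and 22.2% of suprabasal, 2.26 and 1.72% of non-placode, 0.742 and 1.25% of placode and 0.446% of ungated suprabasal-like cells, in the same order. The given markers were thus found in these cells, Krt79 in a minority of them.

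**Figure D3:**
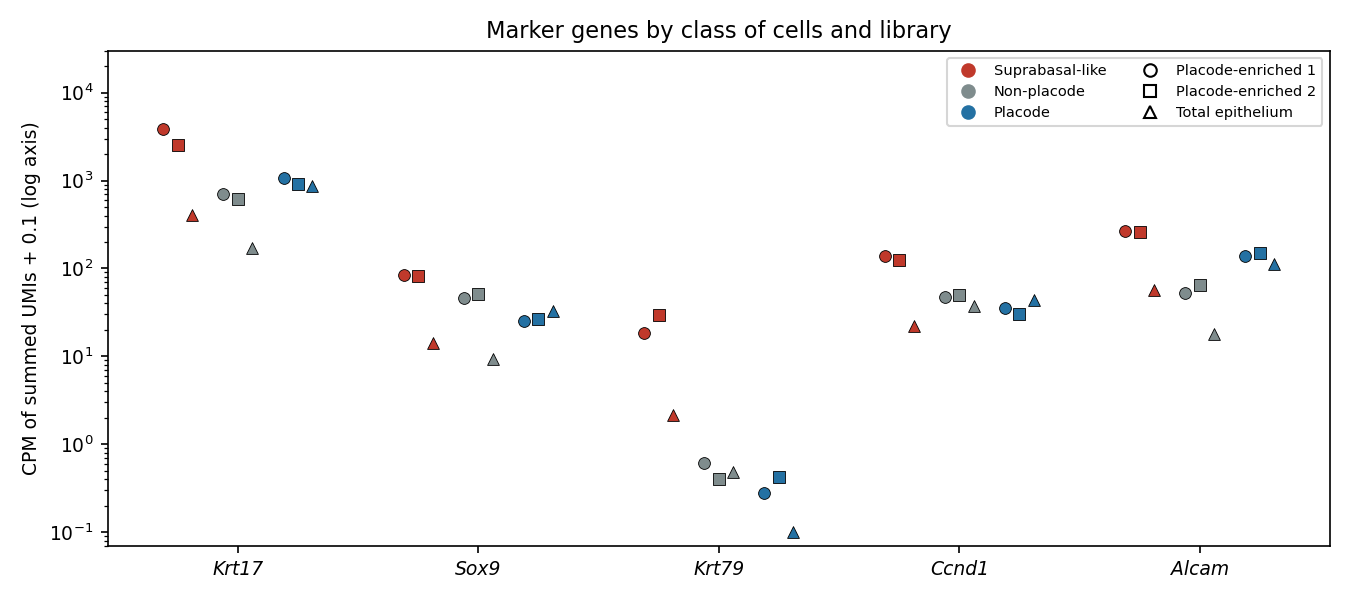
CPM of Krt17, Sox9, Krt79, Ccnd1 and Alcam in the summed UMIs of each class, 1 value per library. All 5 are highest in the suprabasal-like cells of the gated libraries, Krt17 at 3864 and 2548 CPM.

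The suprabasal-like cells were not uniform, and Sox9, Ccnd1 and Alcam were higher in those with a sum of 10 to 20 than in those further inside the limit. In bins of the rule's sum of 10 to 20, 20 to 50, 50 to 100 and 100 or more per 10000, which held 10, 17, 13 and 2 cells in library 1, Sox9 was at 171, 77.9, 40.5 and 16.7 CPM. In library 2, with 17, 16, 7 and 5 cells, it was at 143, 60.3, 52.8 and 25.1. Within the first bin the libraries differed, since the 7 and 9 cells at 10 to 15 held Sox9 at 214 and 79.1 CPM, against 62.3 and 82.3 in cells at 15 or more and 61.7 and 123 just outside, at 5 to 10. Ccnd1 went from 247 to 16.7 CPM and from 239 to 6.28 between the first and last bin, and Alcam from 506 to 100.4 and from 459 to 75.4. Krt14, a basal keratin, ran the same way, from 3159 to 284 and from 2352 to 283. The last bin holds few cells, and over the first 3 bins the order was the same for these 4 genes in both libraries. Krt17 differed: it was at 3199, 4888, 3033 and 2225 CPM in library 1 and at 2951, 2659, 2538 and 1011 in library 2, high up to 100 per 10000. Across the cells, Spearman's rho with the rule's sum was -0.59 and -0.27 for Sox9, -0.44 and -0.49 for Ccnd1 and -0.03 and 0.04 for Krt17, over 42 and 45 cells that share a library and whose UMIs enter both measures. The choice of limit therefore sets the Sox9 level: the log2 difference to non-placode cells was 0.72 at the limit of 10, 0.16 at 20 and -0.52 at 40, while for Krt17 it was 2.22, 2.20 and 2.13 and for Ccnd1 1.39, 0.84 and 0.48. Alcam against placode cells went from 0.79 to 0.26 and -0.08. In the ungated library the 47 cells at 20 to 50 per 10000 held Krt17 at 1241, Sox9 at 34.5, Krt79 at 15.1 and Ccnd1 at 34.5 CPM, and the 188 cells at 100 or more 281, 7.85, 0 and 4.26. In the same 20 to 50 bin the gated cells were higher in Krt17, Sox9 and Ccnd1 in both libraries. Of the 22 Krt79 UMIs of ungated suprabasal-like cells 10 came from 1 cell of that bin.

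**Figure D4:**
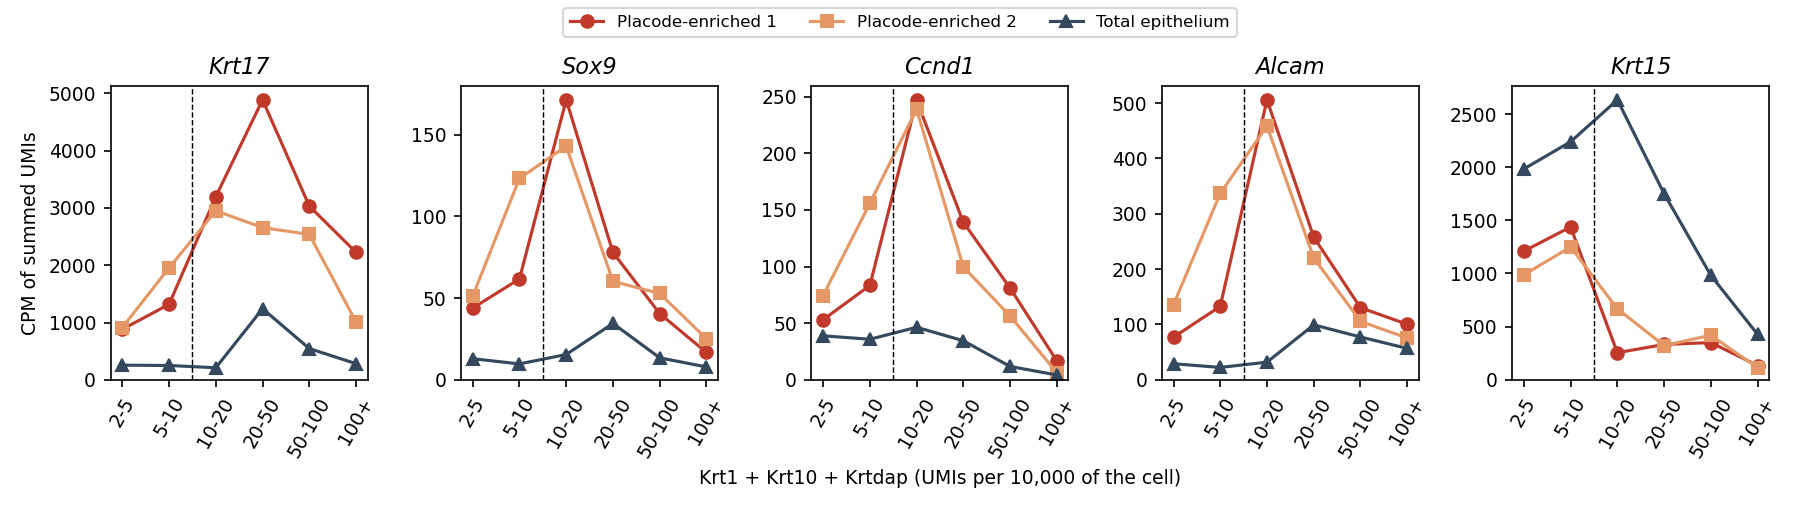
CPM of Krt17, Sox9, Ccnd1, Alcam and the basal keratin Krt15 in bins of the Krt1, Krt10 and Krtdap sum per 10000 UMIs, with 1 line per library. Sox9 in the gated libraries falls from 171 and 143 CPM at 10 to 20 to 16.7 and 25.1 at 100 or more, bins of 10 and 17 and of 2 and 5 cells.

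Beside their non-placode neighbours, the suprabasal-like cells held more transcript of the cornified envelope, of cell junctions and of the differentiation programme, and less of the basal layer, its basement membrane and the Wnt ligands. Over 12294 genes, 1875 (15.3%) were higher than in non-placode cells and 1960 (15.9%) lower, 31.2% in all, by edgeR's quasi-likelihood test at an adjusted p under 0.05 with the library as a block. Against placode cells, 2346 (19.1%) were higher and 2468 (20.1%) lower, 39.2% in all. The classes were cut from transcripts of the same cells, so these counts and the counts per list that follow describe the contrast and are no independent test of it. For lists, higher and lower mean past that threshold. The differences rest on 2 libraries, each a pool of littermates, and log2 values are given with their SE. That SE leans mostly on a spread shared across genes (339 prior against 2 residual degrees of freedom). It can understate a gene's own spread between the libraries.

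Of the structural list, 11 of 12 tested genes were higher and 0 lower, with a median log2 of 3.27 against -0.04 over all genes tested. Dmkn, a secreted protein of the upper epidermis, was at 1318 and 1406 CPM against 167 and 134 in non-placode cells (3.15 ± 0.04), and Ppl, which tethers keratin to the envelope, at 97.9 and 75.5 against 7.70 and 8.19 (3.38 ± 0.15). Sbsn, secreted by differentiating cells, was at 121 and 215 against 13.1 and 14.3 (3.59 ± 0.11). Of the differentiation regulators, 17 of 25 tested genes were higher and 5 lower. Among them, Grhl3 stood at 206 and 144 CPM against 21.7 and 18.6 (3.06 ± 0.10), Zfp750 at 146 and 147 against 10.5 and 13.4 (3.56 ± 0.12), Cebpa at 327 and 333 against 53.7 and 49.0 (2.64 ± 0.07) and Klf5 at 336 and 356 against 63.6 and 73.6 (2.28 ± 0.07). Each of these 4 factors was at least as far above placode cells, with log2 differences of 4.94, 4.80, 3.31 and 3.80.

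Cell junction genes were higher as a group. Of the cadherin, desmosome and nectin list, 16 of 19 tested genes were higher and 1 lower, and of the tight junction list 12 of 15 were higher and 0 lower. Pvrl4, nectin 4, was at 264 and 242 CPM against 11.9 and 16.3 (4.10 ± 0.10). Dsc3, a desmosomal cadherin, was at 134 and 139 against 10.6 and 10.9 (3.62 ± 0.12). Plakoglobin (Jup) was at 574 and 519.8 against 106 and 105 and the desmosome protein Perp at 3259 and 2619.6 against 675 and 567, both with every suprabasal value above every reference value. The claudins Cldn1 and Cldn4 differed by 2.46 ± 0.19 and 1.61 ± 0.09 and occludin (Ocln) by 3.04 ± 0.25. In the Notch list 7 of 15 genes were higher and 3 lower. The receptors Notch1 (277 and 319 CPM against 59.6 and 73.2) and Notch3 (46.0 and 56.1 against 1.71 and 3.33) and the targets Hes1 (900.2 and 834 against 262 and 257) and Nrarp (317 and 245 against 43.9 and 45.6) were higher. Lfng, a glycosyltransferase that modifies Notch receptors, ran the other way at 5.02 and 9.01 against 74.4 and 71.2 CPM.

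Of the actomyosin list, 18 of 26 genes were higher and 3 lower. Nebl, an actin-binding nebulin relative, was at 113 and 94.2 CPM against 6.39 and 8.44, and the calponin Cnn2 at 221 and 198 against 52.3 and 47.4. Of genes known from smooth muscle, Acta2 was at 25.1 and 15.2 CPM against 0.171 and 0, and Myl9 at 33.5 and 38.1 against 3.31 and 2.13. Acta2 was seen in 8 and 7 cells (19.0% and 15.6%), Myl9 in 14 and 14 (33.3% and 31.1%), and both in 6 and 3. The mural-cell genes Rgs5 and Pdgfrb had 0 UMIs in the suprabasal-like cells of either library. Tagln, another smooth-muscle gene, was at 2.51 and 0. Of the upper follicle and hair canal list, 4 of 8 genes were higher and 1 lower, among them Plet1 (37.6 and 27.7 against 3.42 and 3.47 CPM, 3.17 ± 0.25) and the protease Klk10 (27.6 and 18.0 against 5.87 and 5.16, 1.98 ± 0.26). Plet1 is found in the upper follicle of later skin. In ungated suprabasal-like cells Plet1 was at 16.2 and Klk10 at 15.6 CPM. Krt79 met Notch3 in 7 and 9 cells, Plet1 in 5 and 3 and Sox9 in 8 and 9, of the 10 and 11 cells with a Krt79 UMI.

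Genes of the basal layer, of its attachment and of the placode made up the lower side, with Krt5 as the exception among the basal markers. Of the basal list, 1 of 7 was higher and 6 lower. Krt15 was at 311 and 430.4 CPM against 1169 and 1059 in non-placode and 304 and 232 in placode cells, and Krt14 at 1653 and 1602 against 2536 and 2445 in non-placode and 1934 and 1728 in placode cells. Krt5, the partner of Krt14, was instead at 1636 and 1600.2 against 1110.1 and 1086 in non-placode cells (0.51 ± 0.04) and 465 and 417 in placode cells (1.81 ± 0.04). The first of these calls ended when the ungated library was added as another block. Trp63, the master factor of stratified epithelia, was at 129.7 and 112 against 284 and 278. Of the basement membrane and integrin list, 22 of 28 genes were lower and 3 higher. Col17a1, a hemidesmosome collagen, was at 11.7 and 10.4 CPM against 78.6 and 65.3 (-2.74 ± 0.20), Itga6, its integrin partner, at 7.53 and 12.5 against 53.9 and 55.5 (-2.46 ± 0.21), and Dst, which links keratin to hemidesmosomes, at 16.7 and 22.2 against 90.7 and 97.8 (-2.31 ± 0.16). Dst was also low in placode cells (23.6 and 22.8), so that the difference there was -0.31 ± 0.21.

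Of 12 tested Wnt ligand and secretion genes 12 were lower than in non-placode cells, with a median log2 of -2.22. Wnt6 was at 62.7 and 78.3 CPM against 385 and 389.7, Wnt3 at 8.37 and 9.70 against 67.3 and 62.4 and Wnt10a at 6.69 and 7.62 against 42.2 and 38.6. Of the Wnt target list 0 of 15 genes were higher and 9 lower, among them Lef1, the nuclear partner of beta-catenin, at 20.1 and 20.8 against 179 and 155 in non-placode and 314 and 291 in placode cells. Of 28 other placode genes 0 were higher and 20 lower against non-placode cells, and 1 and 25 against placode cells. Bdnf, a neurotrophin, was at 5.02 and 7.62 CPM against 46.8 and 48.4 in non-placode and 117 and 131 in placode cells, and the cadherin Cdh3 at 29.3 and 21.5 against 91.5 and 92.5 and then 156 and 157, so both were highest in placode and lowest in suprabasal-like cells. Sostdc1, a Wnt and Bmp antagonist that rings the placode, was at 286 and 277 against 852 and 759.8 in non-placode and 218 and 165 in placode cells, so the suprabasal-like cells lay between them. Gas1, a Hedgehog co-receptor, had the same order, at 61.9 and 57.5 CPM in suprabasal, 266 and 217 in non-placode and 24.9 and 12.9 in placode cells. Of 13 Hedgehog genes 0 were higher and 8 lower than in non-placode cells. The Eda list had 2 higher and 10 lower of 18, the Fgf list 2 and 9 of 15, the Bmp and Tgfb list 3 and 5 of 22 and the hair follicle fate list 3 and 7 of 20. Over all genes tested 15.3% were higher and 15.9% lower, and the Bmp and Tgfb list lay near these shares.

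The cell cycle genes were mixed, with inhibitors and mitotic genes on the higher side together. Cdkn1a, the p21 inhibitor, was at 46.0 and 54.7 CPM against 4.11 and 3.13 (3.78 ± 0.20), and Cdkn2b, the p15 inhibitor, at 15.9 and 13.9 against 0.0570 and 0.149, which are too few UMIs in the reference to set a fold. Ccnd2, cyclin D2, was at 165 and 229 against 747 and 697 (-1.90 ± 0.06), opposite to Ccnd1. Of 52 G2 and M phase genes 25 were higher and 0 lower, with a median log2 of 0.24, and the list summed to 10682 and 10602 CPM against 8682 and 8502 in non-placode and 7711 and 7219.9 in placode cells. Cells with 100 or more UMIs per 10000 of this list were 47.6% and 46.7% of suprabasal, 31.4% and 30.4% of non-placode and 26.3% and 26.7% of placode cells, and 24.1% of ungated suprabasal-like cells. Cycling cells in these phases hold more RNA, and the suprabasal-like cells were deeper; how much of the depth they carry was not tested. Of 19 dissociation and stress genes 8 were higher and 4 lower. The small heat shock protein Hspb1, also a gene of differentiating keratinocytes, was at 939.5 and 921 CPM against 44.8 and 49.8 and the immediate early gene Fos at 33.5 and 35.3 against 4.39 and 4.02. In ungated suprabasal-like cells Hspb1 was at 1558 and Fos at 45.3 CPM, above the gated values.

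Outside the lists, the genes furthest above non-placode cells included enzymes and membrane proteins of differentiating epidermis. Gsta2, a glutathione transferase, was at 20.9 and 28.4 CPM against 0.0570 and 0.0993, Smagp, a small membrane protein, at 53.5 and 62.4 against 0.399 and 0.397, and Elovl4, which builds very long fatty acids of the skin barrier, at 88.7 and 82.5 against 1.20 and 0.596. The galectin Lgals3 was at 46.0 and 54.7 against 0.627 and 0.546 and Paqr5, a membrane steroid receptor, at 79.5 and 78.3 against 1.25 and 1.04. Sdr16c6, a dehydrogenase, and Fam25c differed by 6.34 ± 0.38 and 6.24 ± 0.33. All 7 were at or near 0 in both reference classes, so their folds are poorly set. On the lower side, the chemokine Cxcl14 was at 207 and 219.7 against 2432 and 2268 (-3.50 ± 0.05), the neural cell adhesion molecule Ncam1 at 2.51 and 5.54 against 47.5 and 52.6 (-3.63 ± 0.27) and the adaptor Nedd9 at 4.18 and 2.08 against 37.1 and 30.3 (-3.50 ± 0.33). The sialyltransferase St3gal6, the p63 relative Trp73, the imprinted gene Mest, Setbp1 and Eif4e3 had log2 differences of -3.47, -3.46, -3.46, -3.59 and -3.40. Against placode cells the furthest genes included the magnesium transporter Nipal1 (56.1 and 59.6 against 0.353 and 0.0821 CPM) and the calpain subunit Capns2 (272 and 313 against 1.59 and 1.97) on the higher side. On the lower side were the helix-loop-helix factor Ascl4 (2.51 and 2.08 against 75.2 and 81.9), the cytokine signal suppressor Socs2 (10.0 and 13.9 against 256 and 231) and the matrix protein Hmcn1 (0 and 1.39 against 27.9 and 42.0). Shh, a gene of the placode and Hedgehog lists, was at 3.35 and 3.46 CPM against 97.1 and 97.9 in placode cells.

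The suprabasal-like cells of the libraries were alike in these genes but not in the genes of the last steps of cornification, which 1 cell of library 2 carried. That cell held 42412 UMIs and a rule sum of 313 per 10000. It gave 146 of 163 UMIs of loricrin (Lor), 90 of 92 of Ly6g6c, 25 of 25 of cornifelin (Cnfn) and 66 of 104 of the differentiation keratin Krt77 in the library 2 suprabasal-like cells. Without it, Lor was at 12.1 CPM there, against 8.37 in library 1, Ly6g6c at 1.43 against 1.67 and Krt77 at 27.1 against 19.2. Ly6g6c, among the genes furthest above non-placode cells (6.78), rests on that cell.

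Set against ungated suprabasal-like cells chosen by the same limit, the gated ones held more of most mitotic and some follicle genes and less of most Wnt ligands and of a few basement membrane and structural differentiation genes. Non-placode cells of the same libraries shared part of these differences, as given further below. The name suprabasal-like holds less well for 153 of the 448 ungated cells, those at 10 to 20 per 10000. They held Notch3 at 8.79 and Grhl3 at 58.5 CPM, nearer the 2.06 and 19.7 of ungated cells at 5 to 10 than the gated cells at 10 to 20. These gated cells held Notch3 at 47.8 and 70.4 and Grhl3 at 319 and 222. Over 9118 genes, 519 (5.69%) were higher and 408 (4.47%) lower in the gated cells, 10.2% in all (edgeR quasi-likelihood test over 3 sums). The lone ungated library is taken to vary like the others, 1 residual degree of freedom is left, and gate, litter and sex make-up cannot be told apart. DESeq2 called 83 and 50, with an adjusted p for 7527 genes. Of 52 G2 and M phase genes 34 were higher and 0 lower, with a median log2 of 0.66 against 0.01 over all genes, but without the cells at 100 per 10000 or more of these genes 3 were higher. The ubiquitin-conjugating enzyme Ube2c was at 659 and 614 CPM against 274 (1.21 ± 0.15, adjusted p = 1.59e-13) and the kinetochore gene Cenpf at 243 and 297 against 122 (1.15 ± 0.15, adjusted p = 9.01e-13). Non-placode cells differed in the same direction, Ube2c being at 486 and 482 CPM when gated and 293 when ungated.

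Of the hair follicle fate list 6 of 14 genes were higher and 0 lower, among them Runx1 (13.4 and 17.3 CPM against 2.52, 2.60 ± 0.61, adjusted p = 5.46e-04), Sox11 (22.6 and 30.5 against 4.85, 2.46 ± 0.35, adjusted p = 3.70e-10) and Sox4 (266 and 279 against 126, 1.11 ± 0.15, adjusted p = 5.82e-12), all transcription factors. Of the Hedgehog list 3 of 10 genes were higher and 1 lower, with the receptor Ptch1, which Hedgehog signalling induces, at 36.0 and 45.7 CPM against 14.3 (1.53 ± 0.24, adjusted p = 1.32e-08). In gated non-placode cells Ptch1 was at 58.3 and 62.1 CPM. At the limit of 40 per 10000 none of the Hedgehog genes was higher between gated and ungated cells, nor with DESeq2. Notch1 (277 and 319 against 121 CPM, 1.30 ± 0.15, adjusted p = 3.39e-16) and Hes1 (900.2 and 834 against 467, 0.89 ± 0.15, adjusted p = 2.58e-07) were higher, and Lfng lower (5.02 and 9.01 against 20.4, -1.50 ± 0.35, adjusted p = 4.54e-04). Of the actomyosin list 9 of 24 genes were higher and 0 lower. Myl9 was at 33.5 and 38.1 CPM against 4.85 (2.88 ± 0.31, adjusted p = 2.51e-18) and Cnn2 at 221 and 198 against 105 (0.98 ± 0.15, adjusted p = 8.12e-09), and none of the list was called without the G2 and M cells. The placode and Fgf feedback genes Etv4 and Dusp6 were higher by 1.58 ± 0.30 and 1.29 ± 0.16 (adjusted p = 8.15e-06 and 4.09e-13).

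On the lower side stood 6 of 9 Wnt ligand genes, with 0 higher. Wnt3 was at 8.37 and 9.70 CPM against 35.3 (-1.96 ± 0.29, adjusted p = 1.49e-09), Wnt6 at 62.7 and 78.3 against 162 (-1.19 ± 0.16, adjusted p = 4.94e-11) and Lef1 at 20.1 and 20.8 against 68.7 (-1.75 ± 0.23, adjusted p = 6.47e-12). These calls depended on the limit, and the 153 ungated cells at 10 to 20 per 10000 held Krt15 at 2634 CPM, against 255 and 668 in the gated ones: at 20 and at 40 per 10000, 0 of the Wnt ligands were lower. Of the basement membrane list 1 of 25 genes were higher and 5 lower, Col17a1 at 11.7 and 10.4 CPM against 31.8 (-1.53 ± 0.28, adjusted p = 3.14e-06) and Itga6 at 7.53 and 12.5 against 20.7 (-1.02 ± 0.32, adjusted p = 0.0173), and at either limit 0 of them were lower. Krt15 was at 311 and 430.4 against 1344 CPM (-1.85 ± 0.14, adjusted p = 4.07e-35). Of the structural list 1 of 13 genes were higher and 4 lower. Sbsn was at 121 and 215 CPM against 285, Tgm3, a cross-linking transglutaminase, at 13.4 and 20.1 against 58.9 (-1.79 ± 0.24, adjusted p = 1.56e-11) and Krt77 at 19.2 and 72.1 against 93.7, while Calml3, a calmodulin relative of epithelia, was higher (44.3 and 58.2 against 17.1, 1.60 ± 0.22, adjusted p = 1.07e-10). Cldn6, a claudin also found in periderm, was higher too (79.5 and 63.1 against 21.5, 1.71 ± 0.21, adjusted p = 2.09e-13). Outside the lists, the tubulins Tubb2b (3.04 ± 0.20, adjusted p = 1.32e-49) and Tuba1a (2.45 ± 0.17, adjusted p = 4.81e-44) were higher, and the amino acid transporter Slc7a11 (-2.04 ± 0.25, adjusted p = 1.05e-13), the serpin Serpinb3c (-3.34 ± 0.29, adjusted p = 1.51e-27) and the scavenging chemokine receptor Ackr3 (-2.31 ± 0.38, adjusted p = 8.52e-08) lower.

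Several of these calls rest on the tool or on cycling cells. With DESeq2 the differences of Ackr3, Col17a1, Etv4, Itga6, Krt77, Lfng, Ptch1, Runx1, Sbsn and Wnt3 between gated and ungated cells missed the threshold, and without the G2 and M cells those of Ackr3, Cenpf, Cnn2, Col17a1, Etv4, Itga6, Krt77, Lfng, Myl9, Sbsn, Sox11 and Ube2c. At the limit of 40 per 10000 those of Calml3, Dusp6, Etv4, Lef1, Myl9, Ptch1, Sox11, Wnt3 and Wnt6 missed it.

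**Figure D5:**
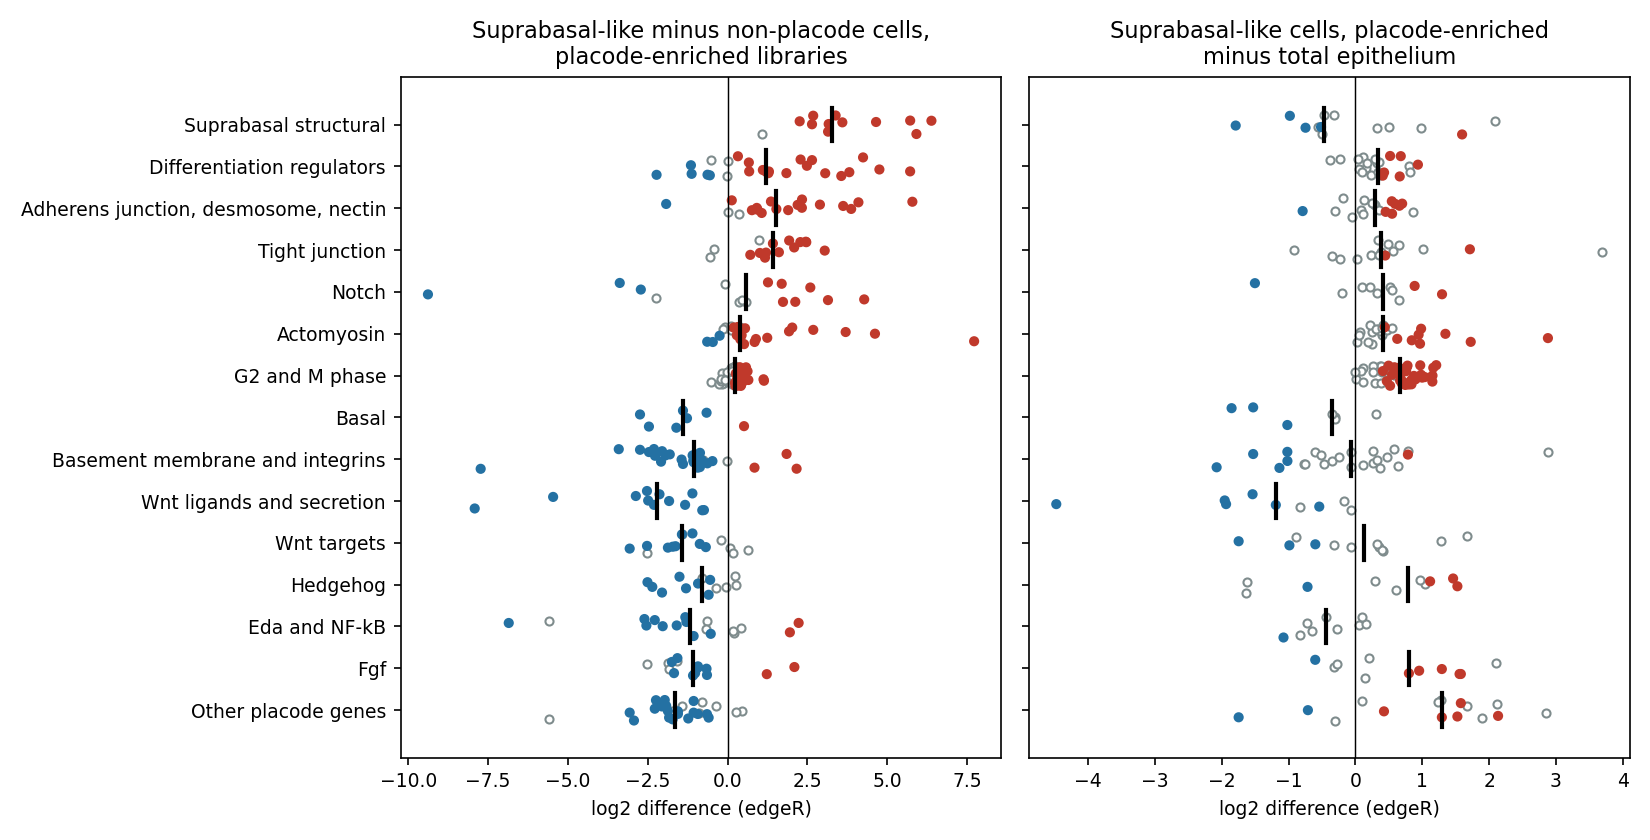
log2 differences of the genes of 15 lists, suprabasal against non-placode cells of the gated libraries (left) and gated against ungated suprabasal-like cells (right); filled points passed an adjusted p under 0.05 (red higher, blue lower), open points did not, and bars are medians. The Wnt ligand list has a median of -2.22 on the left and -1.19 on the right, and the G2 and M list 0.24 and 0.66.

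Because gated non-placode cells also differed from ungated ones, the difference of the contrasts was tested: suprabasal minus non-placode cells, gated minus ungated (an interaction term over 9 sums). Over 13081 genes, 201 had a contrast that was higher in the gated libraries (1.54%) and 391 a lower one (2.99%), 4.53% in all, where DESeq2 gave an adjusted p for 3951 genes and called 60 and 50 of them. The ungated non-placode cells, a reference of this contrast, held the melanoblast list at 164 CPM, against 6.44 and 1.34 in the gated ones, and its part in these differences was not tested. By list, the median log2 difference of the contrasts was 0.16 for G2 and M phase, -0.27 for hair follicle fate and -0.19 for Hedgehog genes. It was -0.07 over all genes tested. Between gated and ungated suprabasal-like cells alone the medians of these 3 lists were 0.66, 0.46 and 0.79. For the Wnt ligands the median was -1.04 in the difference of contrasts and -1.19 between the suprabasal-like cells alone. The neuropeptide precursor Nts was at 30.1 and 20.8 CPM in gated suprabasal and 5.82 and 5.26 in gated non-placode cells, but at 5.87 and 22.0 in the ungated ones, so that its contrast pointed up on 1 side and down on the other (difference 3.97 ± 0.34, adjusted p = 1.45e-28). Sat1, which degrades polyamines, did the same, at 102 and 72.1 CPM in gated suprabasal and 31.5 and 27.7 in gated non-placode cells, against 32.7 and 50.9 in the ungated ones (2.07 ± 0.18, adjusted p = 6.55e-29). Cnn2 differed by 1.03 ± 0.13 (adjusted p = 2.58e-12), and of the actomyosin list 14 of 26 contrasts were higher and 0 lower, Actb among them at 0.38 ± 0.05 (adjusted p = 6.12e-11). Cxcl14 was lower, at 207 and 219.7 CPM against 2432 and 2268 when gated and 617 against 1621 when ungated (-2.17 ± 0.07, adjusted p = 1.20e-179). Nts, Sat1, Cnn2 and Cxcl14 passed the threshold under each alternative that gave a test of this contrast.

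Basal genes had the lower contrast too. Krt15 differed by -0.98 ± 0.07 (adjusted p = 3.23e-45) and Col17a1 by -1.87 ± 0.27 (adjusted p = 5.04e-10), while Krt5 was higher by 0.66 ± 0.06 (adjusted p = 1.98e-29). Lef1 (-1.55 ± 0.19, adjusted p = 7.14e-13), Wnt3 (-1.83 ± 0.28, adjusted p = 1.37e-08), Wnt6 (-1.23 ± 0.12, adjusted p = 1.86e-22) and Lfng (-2.12 ± 0.32, adjusted p = 4.36e-09) were lower, and each call ended at the limits of 20 and 40 per 10000. Several genes of late differentiation had the higher contrast without being higher in gated suprabasal-like cells. Lgals3 was at 46.0 and 54.7 CPM in gated and 168 in ungated suprabasal-like cells, and its contrast differed by 2.39 ± 0.37 (adjusted p = 2.04e-08) as ungated non-placode cells held 11.2 against 0.627 and 0.546 in the gated ones. Smagp (3.11 ± 0.47, adjusted p = 5.39e-09) and Fam25c (2.44 ± 0.43, adjusted p = 1.76e-06) had the same pattern, with 5.69 and 7.21 CPM in ungated non-placode cells. With cells thinned to 5000 UMIs the differences of Col17a1, Fam25c, Lgals3 and Smagp missed the threshold, and with no replicate block those of Actb, Fam25c, Krt15 and Krt5. The suprabasal keratin sum was higher in the ungated placode cells as well, as given above; the part of such background in these contrasts was not tested.

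Markers of other cells that a sort of skin epithelium could carry were summed in the suprabasal-like cells. The periderm keratins Krt4, Krt6a and Krt8 had at most 0.837 CPM in either library, and Krt18 was at 4.18 and 4.16 against 9.41 and 13.1 in non-placode cells. The whole periderm list summed to 3187 and 2763 CPM against 883 and 818 in non-placode cells and 2707 in ungated suprabasal-like cells. Of its 10 tested genes 6 were higher and 2 lower than in non-placode cells, Sfn, also a gene of differentiating keratinocytes, at 2365 and 2020.1 against 543 and 512. The fibroblast list summed to 171 and 149.7 CPM against 835 and 749 in non-placode cells and 427 in ungated suprabasal-like cells. In libraries 1 and 2 5 and 6 of 10 genes were at 0, Col1a1 and Pdgfra among them. The melanoblast list summed to 0 and 2.77 CPM against 6.44 and 1.34 in non-placode cells and 7.18 in ungated suprabasal-like cells, with 7 and 4 of 7 genes at 0, Kit and Sox10 among them. The immune list summed to 12.5 and 7.62 CPM against 55.3 and 53.1 in non-placode cells and 4.85 in ungated suprabasal-like cells, with 3 and 3 of 4 genes at 0, and the endothelial list to 11.7 and 13.9 against 26.6 and 24.2 and then 23.9, with 3 and 2 of 4 at 0. The Merkel cell list summed to 1.67 and 1.39 CPM against 3.42 and 2.88 in non-placode cells and 0.559 in ungated suprabasal-like cells, with 4 and 3 of 5 genes at 0. The Schwann cell list was higher than in non-placode cells, at 38.5 and 46.4 CPM against 19.5 and 19.4 in non-placode cells and 29.0 in ungated suprabasal-like cells. Most of it was Erbb3, a receptor that keratinocytes also carry, at 34.3 and 43.0 against 12.5 and 13.6, while 2 and 2 of 6 genes, Sox10 and Fabp7, were at 0. The erythroid list summed to 6.69 and 5.54 CPM against 0.0570 and 0.248 in non-placode cells and 9.41 in ungated suprabasal-like cells, also higher than in non-placode cells, with 3 and 3 of 5 genes at 0. The part of these cells in the differences above was not tested.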

How the data were processed

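The authors deposited UMI counts per gene for each cell, whole numbers that had not been normalized, per the file headers and the values. Per the submitters' processing notes, Cell Ranger, Seurat and the build mm10 were used, with no version given. Filters on cells are not given in the sources used here, and in the tables the smallest gene number of a cell was 2006 and the largest mitochondrial share 4.98%. The gated libraries shared a table, and the number ending each barcode was taken as the library number, so that a swap would change only their names. The ungated and gated tables held 14959 and 15900 genes. Comparisons within the gated libraries drew on the 15900, and those of gated with ungated cells on the 14656 in both.

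Cells were classed by the limits given above, counts were summed per library and class, and the 8 genes that chose the classes were left out of the fits. CPM is the sum over the class's total. edgeR 4.0.16 (R 4.3.3) ran the quasi-likelihood test after TMM scaling and filterByExpr and, where classes of 1 library were compared, with the library as a block, since those classes come from the same pool of embryos. P-values carry the Benjamini-Hochberg adjustment over all genes tested. With the library as a block they measure how class differences vary between these pools, and not how the levels of the pools vary. Over the 3 and 9 sums edgeR shrank every gene to 1 common spread. Over the 6 sums of the gated libraries it set 339 prior degrees of freedom, shared across genes, against 2 residual ones. The p-values and SEs of all these fits therefore carry little information on a single gene's own spread. Each SE was worked back from the test, as the size of the log2 value over the square root of its F statistic. It is unsteady for values near 0: for Sox9 in the difference of contrasts it was 0.28, and 1.03 without the G2 and M cells. For Krt17 over non-placode cells it was 0.035, where DESeq2 gave 0.084. On simulated counts, 2-fold changes were recovered for 61% of changed genes against non-placode cells, 58% against placode cells, 71% between gated and ungated cells and 43% for the difference of contrasts, over 12041, 12041, 8692 and 12691 genes. The simulation gave every gene the same common spread and, apart from the changed genes, equal levels in all classes and libraries. These recovery rates therefore do not cover a gene's own spread between the pools. The doublet caller was scrublet (scanpy 1.11.5, expected rate 0.05), and no call was removed from the main values. Shares of cells were also computed with each cell thinned to 5000 UMIs, to which every cell reached. Intervals are exact binomial ones and cover counting error only.

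The members, gene lists and limits were chosen with earlier results of these data known. The text names the genes of the rule and the given markers, up to 4 genes per list with the lowest p in the comparison described, and, outside the lists, from the 8 highest and 8 lowest log2 differences past the threshold with the same direction in every library and at least 20 CPM in the higher class. Lor, Cnfn, Ly6g6c, Tagln and the mural-cell genes were named after their values were seen. Some genes that met this rule are not reported here. Alternatives were RLE scaling, no filter, DESeq2 1.42.0, thinned cells, a limit of 20, cells below the 90th percentile of depth, without scrublet calls, without the block, other sets of sums and each gated library left out. Limits of 40, limma voom (limma 3.58.1) and leaving out cells with 100 or more G2 and M UMIs per 10000 were added after the data were seen. Gene positions come from the GRCm38 annotation.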

Additional observations from a re-analysis of the deposited data

Results flagged for a closer look

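For 26 named genes the contrast of suprabasal with non-placode cells differed between gated and ungated libraries by the test of that difference (edgeR, adjusted p under 0.05), which is why they are listed. The log2 difference of the contrasts was above 0 for Nts (3.97), Smagp (3.11), Afap1l2 (2.47), Fam25c (2.44), Sdr16c5 (2.43), Lgals3 (2.39), Paqr5 (2.07), Sat1 (2.07), Cnn2 (1.03), Krt5 (0.66) and Actb (0.38). It was below 0 for Serpinb7 (-3.53), Dlk2 (-2.63), Ncam1 (-2.61), Itga3 (-2.29), Ntf3 (-2.26), Mest (-2.23), Trp73 (-2.19), Cxcl14 (-2.17), Lfng (-2.12), Setbp1 (-2.10), Col17a1 (-1.87), Wnt3 (-1.83), Lef1 (-1.55), Wnt6 (-1.23) and Krt15 (-0.98). Of those above 0, Nts, Sat1, Afap1l2 and Cnn2 were also higher in gated than in ungated suprabasal-like cells, and Afap1l2, an actin-associated adaptor, was at 24.3 and 22.2 CPM against 11.7. Lgals3, Smagp, Fam25c and Sdr16c5 were lower in gated than in ungated suprabasal-like cells, Sdr16c5, a retinol dehydrogenase, at 10.9 and 15.9 CPM against 52.1. Of those below 0, Serpinb7 was at 0.837 and 0 CPM in gated suprabasal-like cells against 12.2 in ungated ones. Dlk2, a Delta-like membrane protein, was at 0.837 and 0.693 against 14.54, and Ntf3, a neurotrophin, at 2.51 and 2.77 against 13.0. The ungated side is 1 library, so the spread behind each of these differences comes from the other sums. Many of these calls did not hold under other settings. With cells thinned to 5000 UMIs 14 missed the threshold, and Paqr5 turned its sign. At the limit of 20 per 10000 13 missed it, at 40 12, with no replicate block 13 and without the G2 and M cells 9. Serpinb7 and Dlk2 rest on single UMIs in the gated suprabasal-like cells.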

How the results depend on the processing

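The numbers of genes past the threshold depended on the processing in each comparison. With no replicate block, the library number being ignored, 1288 genes were lower than in non-placode cells, and the difference of contrasts had 23 higher and 22 lower. With thinned cells the counts were 526 higher and 641 lower against non-placode cells, 720 higher and 916 lower against placode cells, 116 higher and 124 lower between gated and ungated cells and 44 higher and 174 lower for the difference of contrasts. Without the G2 and M cells they were 1086 higher and 1154 lower, 1451 higher and 1575 lower, 103 higher and 93 lower and 78 higher and 65 lower in the same order. DESeq2 called 1217 genes lower than in non-placode and 1616 than in placode cells, 83 higher and 50 lower between gated and ungated cells and 60 higher and 50 lower for the difference of contrasts. Between gated and ungated cells there were 303 higher and 239 lower at the limit of 20 per 10000, 182 higher and 155 lower at 40, 306 higher and 252 lower without the deepest cells and 254 higher and 174 lower without scrublet calls. The difference of contrasts had 105 lower at 20, 97 higher and 189 lower at 40 and 228 lower without the deepest cells, and 1236 genes were higher than in non-placode cells without them. The limit of 40 left 39 suprabasal-like cells of 87. At that limit the sign turned for Sox9 against non-placode cells (-0.52), for Alcam against placode cells (-0.0783) and for Alcam in the difference of contrasts (-0.73), and with thinned cells for Paqr5 in the difference of contrasts (-4.86). In the difference of contrasts 2 values that did not pass the threshold also turned. Alcam, at 0.37, was -0.37 at 20, -0.05 with thinned cells and -0.07 without the G2 and M cells, and Sox9, at 0.03, was -0.42 at 20, -0.73 at 40, -0.72 with thinned cells and -0.01 without the filter. The causes were not tested, beyond the smaller number of cells and UMIs in these settings.

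Leaving out either gated library left no residual degrees of freedom within it, so only values were computed. Of the named genes Sox9 alone changed sign, in the difference of contrasts, from 0.16 without library 2 to -0.06 without library 1. The planned exclusion of cells at 20 G2 and M UMIs per 10000 left no suprabasal cell in library 1 and was not run, and leaving out suprabasal-like cells at the placode limit removed none of the gated and 4 of the ungated ones. With 42 and 45 cells, genes under about 1 CPM in the sums rest on single UMIs, and the gate, litter and sex make-up of the pools cannot be told apart.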

Other observations

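S phase genes and G1 regulators were counted beside the mitotic list. Of 42 S phase genes 4 were higher and 8 lower in suprabasal than in non-placode cells, with a median log2 of -0.07, and 0 and 1 in gated than in ungated suprabasal-like cells. Of 22 G1 cyclins and inhibitors 10 were higher and 4 lower than in non-placode cells. Over all genes tested 15.3% were higher and 15.9% lower than in non-placode cells.

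For 3 genes, chosen after their values were seen, the gated suprabasal-like cells lay above both non-placode cells and ungated suprabasal-like cells. Tubb2b was at 129.7 and 132 CPM, against 172 and 187 in placode, 78.1 and 90.03 in non-placode and 15.8 in ungated suprabasal-like cells. Cpe, a carboxypeptidase, was at 41.8 and 38.1 CPM, against 40.6 and 41.1 in placode, 17.5 and 17.5 in non-placode and 5.13 in ungated suprabasal-like cells. The calcium-binding S100a6 was at 38.5 and 28.4, against 39.9 and 40.05 in placode, 21.7 and 23.7 in non-placode and 5.59 in ungated suprabasal-like cells. Of these, Cpe and S100a6 did not pass the threshold against placode cells, which does not show that their levels are the same. Ungated non-placode and placode values of the 3 genes are not given here. In the gap to ungated suprabasal-like cells, gate, litter and sex make-up cannot be told apart.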
